A study of Mus musculus with 6 samples.

Results

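The striated muscle contractile genes are the genes that build the sarcomere and let it be excited, powered and repaired. By gene name, 42 of the 38553 genes of the table are members. They comprise 8 myosin and myosin-binding genes, 9 genes of the thin filament, 8 genes of the giant, Z-disc and intermediate filaments, 3 genes for assembly and turnover, 9 genes of excitation and calcium handling, 4 acetylcholine receptor subunits and the creatine kinase gene Ckm. RNA-Seq of craniofacial tissue microdissected from E12.5 mouse embryos compared 3 controls with 3 Rbfox2 mutants. Controls were Rbfox2 flox/flox without Cre, mutants were Pax3Cre/+:Rbfox2 flox/flox, and so both groups carry the floxed alleles while the mutants alone also carry Cre in place of 1 Pax3 copy. Pax3Cre/+ deletes in the neural crest, the paraxial mesoderm and the derivatives of the somites, which include the precursors of tongue muscle. Many head muscles arise from cranial mesoderm outside the Pax3 lineage, so the muscle of this tissue may be only in part the deleted lineage. That part was not measured.

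In a sarcomere, myosin thick filaments pull on actin thin filaments, troponin and calcium set when they may do so, and titin, nebulin and the proteins of the Z-disc hold the filaments in register. Acetylcholine released by a motor neuron opens receptors in the fibre membrane, and the voltage sensor and the ryanodine receptor then release calcium from the sarcoplasmic reticulum. In the embryo, myoblasts driven by Myod1 and Myog fuse to fibres that first use embryonic and perinatal myosins and a mixture of slow, cardiac and fast isoforms. In whole tissue, fewer muscle cells and less RNA per muscle cell cannot be told apart.

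All values are FPKM, the fragments of a gene per kilobase of its length, scaled to all mapped fragments, and so can be compared between genes. Differences are given on the scale of log2(FPKM + 1), mutant minus control and so come out too small where FPKM is low. The FPKM of a sample summed to 528123 to 590174 over all genes. No file gives the read depth of a single sample, for which the paper states a range over the samples. Rbfox2, the targeted gene, had 58.4, 65.0 and 61.3 FPKM in control replicates 1, 2 and 3 and 38.1, 36.3 and 34.3 FPKM in mutant replicates 1, 2 and 3. Replicate 1 of each group stood apart from the rest, at -19.1 and -17.0 on a first principal component with 54.7% of the variance, while the other samples lay between 7.55 and 11. Since all libraries were sequenced together and the labels give no batch, muscle genes are given by replicate number and with and without these samples. Once group means were removed, samples with the same number correlated across genes at 0.64, 0.26 and 0.51, but also at 0.23 and 0.40 across numbers 2 and 3, and negatively across number 1 and the others. The numbers thus set the first replicates apart more than they pair samples 2 and 3, and limma values with the replicate number as a block stand beside those without it. With 3 samples against 3, an exact two-sided permutation test cannot give a p below 0.10.

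RefSeq promoters of GRCm38.p6, from 250 bases before to 50 bases after the start, were matched for 32 of the 42 genes. Chrnd, Cacng1, Actn3, Tcap, Neb, Jph1, Trim55, Trdn, Tnni2 and Tnnt3 were not matched. The windows were searched for 4 motifs, the E-box CANNTG (bound by Myod1 and Myog), the MEF2 site, the CArG box (bound by serum response factor) and the TATA box TATAAA. The first 3 motifs read alike on both strands, while TATAAA was searched on the strand of the gene. An E-box was present in 87.5% of the muscle promoters and in 72.1% of 27025 mouse promoters, and at least 2 E-boxes in 62.5% against 39.5%. A CArG box was present in 9.38% against 1.59%, a MEF2 site in 9.38% against 3.29% and TATAAA in 4 of the 32 against 8.88%. These matches describe the letters in the windows and are not evidence of binding.

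The sequences of 5 promoters are shown because the results return to these genes. Actc1 and Acta1 are the sarcomeric actins, Chrng and Chrnb1 are acetylcholine receptor subunits with 3 E-boxes each, and Myh8 is the myosin whose ratio to Myh3 did not overlap between the groups. Each is read 5′ to 3′ on the strand of the gene with the motifs in capitals. They lie on GRCm38.p6 at chr2:114052826-114053125 (Actc1, minus strand), chr8:123894726-123895025 (Acta1, minus strand), chr1:87205561-87205860 (Chrng, plus strand), chr11:69795888-69796187 (Chrnb1, minus strand) and chr11:67276874-67277173 (Myh8, plus strand).
Actc1: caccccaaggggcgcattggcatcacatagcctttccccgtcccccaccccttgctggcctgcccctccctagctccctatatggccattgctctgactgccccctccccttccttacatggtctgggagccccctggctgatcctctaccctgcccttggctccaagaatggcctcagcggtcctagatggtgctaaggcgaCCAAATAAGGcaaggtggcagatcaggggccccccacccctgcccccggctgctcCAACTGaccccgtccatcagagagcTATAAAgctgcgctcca
Acta1: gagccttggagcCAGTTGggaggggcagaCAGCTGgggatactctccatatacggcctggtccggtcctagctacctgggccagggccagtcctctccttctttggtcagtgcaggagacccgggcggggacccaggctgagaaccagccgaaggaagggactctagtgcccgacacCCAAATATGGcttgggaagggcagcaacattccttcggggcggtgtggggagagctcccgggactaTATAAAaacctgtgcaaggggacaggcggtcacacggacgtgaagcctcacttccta
Chrng: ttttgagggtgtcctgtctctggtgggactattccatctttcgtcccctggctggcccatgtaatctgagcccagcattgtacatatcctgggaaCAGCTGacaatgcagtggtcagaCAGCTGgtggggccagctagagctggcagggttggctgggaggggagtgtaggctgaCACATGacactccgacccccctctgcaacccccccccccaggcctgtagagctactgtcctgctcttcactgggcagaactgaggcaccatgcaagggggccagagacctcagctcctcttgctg
Chrnb1: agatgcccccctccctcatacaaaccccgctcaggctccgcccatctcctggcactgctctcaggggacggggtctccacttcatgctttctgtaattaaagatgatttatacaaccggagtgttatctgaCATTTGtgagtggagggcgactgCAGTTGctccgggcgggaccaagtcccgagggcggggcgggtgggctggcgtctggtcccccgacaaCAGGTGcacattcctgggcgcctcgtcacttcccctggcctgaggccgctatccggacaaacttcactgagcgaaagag
Myh8: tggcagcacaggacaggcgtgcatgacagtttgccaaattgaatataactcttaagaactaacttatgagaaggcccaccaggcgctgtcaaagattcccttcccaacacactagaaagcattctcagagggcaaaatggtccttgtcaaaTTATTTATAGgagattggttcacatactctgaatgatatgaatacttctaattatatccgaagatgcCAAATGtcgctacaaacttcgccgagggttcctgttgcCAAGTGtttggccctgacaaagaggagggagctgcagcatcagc
Distances are from the most upstream RefSeq start of each gene, which need not be the start used in this tissue. Both actin promoters hold a CArG box, which starts 47 bases before the RefSeq start in Actc1 and 73 bases before it in Acta1. Both hold TATAAA, at base 34 past the start in Actc1 and 7 bases before it in Acta1. The E-boxes of Chrng start 155, 132 and 75 bases before the start and those of Chrnb1 119, 96 and 29 bases before it. The promoter of Myh8 holds a MEF2 site that starts 99 bases before the start. It has an E-box 32 bases before the start and another at base 7 past it. Tnnt2 had 5 E-boxes and Tnni1 had 4, the highest numbers among the 32, while Ryr1, Smyd1, Ldb3 and Myl4 had none.

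The muscle programme was present at E12.5, with a wide range of levels. Mean FPKM over the 6 samples ran from 0.0572 for Ckm to 91.0 for Actc1, with a median of 2.89. It was over 10 for 10 members, over 5 for 16, between 1 and 5 for 16 and at most 1 for 10. The 5 most abundant, Actc1, Mylpf, Tnnt1, Tnnc1 and Myl1, held 57.8% of the summed FPKM of the 42 genes in controls. All 8 fast-fibre members and all 7 slow-fibre or cardiac members had a mean FPKM over 1. Of 10 genes that mark heart muscle, 2 had a mean FPKM over 1 and none passed the filter on low values. Their summed FPKM was 6.25 to 8.03 in controls and 5.19 to 6.70 in mutants, with the pacemaker channel Hcn4 as the most abundant, at 3.22 FPKM on average in controls and 3.55 in mutants. Myh6, Myl2, Myl3, Myl7, Nppa, Nppb and Gata4 stayed below 1 FPKM in all 6 samples, and Nppa, Nppb and Gata4 were listed at 0 in at least 1 of them. Hcn4, Tnni3 and Nkx2-5 exceeded 1 FPKM in all controls.

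All 42 genes had a lower mean in Rbfox2 mutants than in controls, against 51.0% of the 23063 genes with a value above 0. The median difference was -0.39, against -0.0014 for all genes. The differences ran from -0.69 for Myh8 to -0.086 for Jph1, and the mutant mean was between 17.4% and 90.9% of the control mean with a median of 65.1%. However, the spread within each group was of the same order. The summed FPKM of the 42 genes was 276, 841 and 494 in control replicates 1, 2 and 3 and 263, 460 and 351 in mutant replicates 1, 2 and 3. Control replicate 1 thus lay among the mutants, and control replicate 2 lay far above every other sample.

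**Figure D1:**
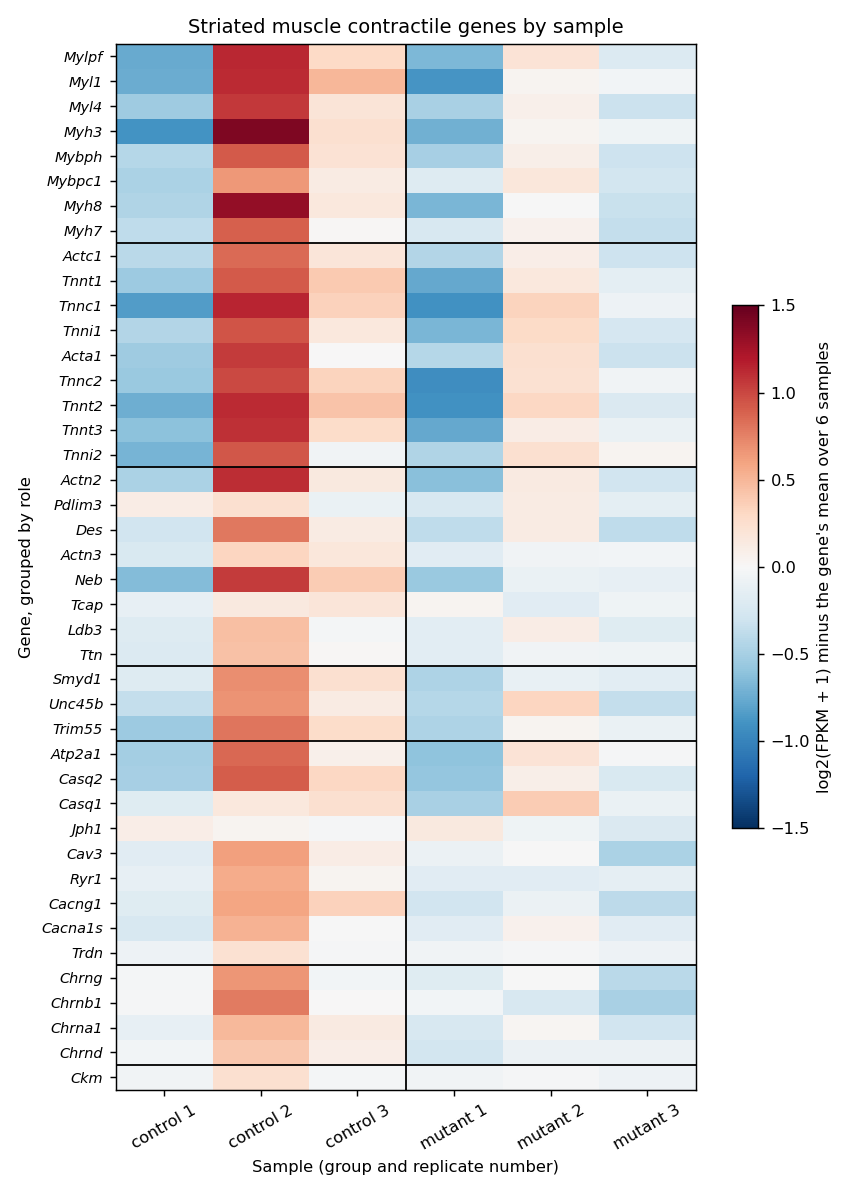
Heat map of log2(FPKM + 1) of the 42 muscle genes (rows, grouped by role and ordered by mean FPKM) in 6 samples (columns), as the difference from the mean of each gene. Control replicate 2 is the highest sample for 39 of the 42 genes, and the first replicates of both groups are the 2 lowest for 24.

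For single genes, control replicate 2 held the top value of the 6 samples in 39 of the 42 genes, against 21.5% of all genes. The next highest sample was control replicate 3 for 26 genes and mutant replicate 2 for 14. The first replicates of both groups were the 2 lowest samples for 24 genes, against 19.9% of all genes. Within the controls alone, replicate 2 had a median of 3.05 times the FPKM of replicate 1, a larger ratio than that between the group means. Without control replicate 2, 31 of the 42 genes had a lower mean in mutants, against 46.8% of all genes, and the median difference was -0.093. Without control replicate 1, all 42 were lower and the median difference was -0.66.

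The difference depended on the replicate number. Between the first replicates, 25 of the 42 genes were lower in the mutant, against 48.0% of all genes, with a median difference of -0.062. Between the second replicates it was 41 of the 42, against 48.5%, with a median of -0.71, and Casq1 was the exception. Between the third replicates it was also 41, against 45.5%, with a median of -0.39, and Tnni2 was the exception. In replicates 2 and 3 alike 40 genes were lower, against 26.3% of all genes, and in all 3 numbers 24 were, against 12.4%. Nearly all members were thus lower in the mutant between the second and between the third replicates, while the first replicates, both low, differed little. The labels do not pair the samples, and the second difference includes control replicate 2, the highest sample. With group means removed, mutant replicate 2 correlated across genes at 0.40 with control replicate 3 and at 0.26 with control replicate 2.

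**Figure D2:**
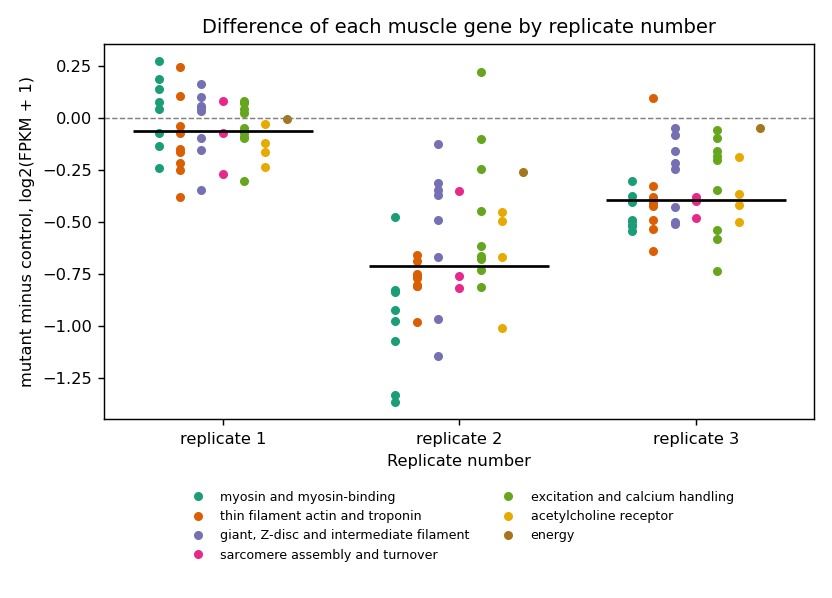
Mutant minus control difference in log2(FPKM + 1) of each of the 42 muscle genes (points, coloured by role) for each replicate number, with the median as a black bar and 0 as a dashed line. The medians are -0.062, -0.71 and -0.39 for replicates 1, 2 and 3.

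With limma and Benjamini-Hochberg adjustment over the 10061 genes that exceeded 5 FPKM throughout at least 1 of the groups, no muscle gene passed. The filter kept 14 of the 42, 12 through both groups and 2, Actn2 and Atp2a1, through the controls alone. None of the 14 had an unadjusted p under 0.05, against 0.954% of all genes tested that were lower at this p. The smallest p of a member was 0.187, for Mybph. The share of all genes tested with an adjusted p under 0.05 was 0%, and 167 genes had an unadjusted p under 0.05. With the replicate number as a block, 10 of the 14 had an unadjusted p under 0.05 and were lower, against 3.70% of all genes, and none passed the adjusted threshold, with 0.645 as the smallest adjusted p from limma. Of these 10, 9 had passed the filter through both groups. With replicates 2 and 3 only, 10 of 17 had an unadjusted p under 0.05, against 5.74%, and the smallest adjusted p was 0.375. Casq2, 1 of these 10, passed the filter through the controls alone, and so did Des. Without control replicate 1 the count was 13 of 17, against 3.75%, but 5 of the 17 passed the filter through the controls alone, and 4 of these, Actn2, Casq2, Des and Tnnt2, are among the 13. The filter favours a difference in genes that pass only through the group where they are high, without fixing it. Each of these counts holds 9 members that passed through both groups. Without control replicate 2 it was 0 of 14, of which Acta1, Atp2a1, Myh3, Mylpf and Tnnc1 then had a difference above 0. Without any filter on low values it was 1 of 42, Cacng1, against 1.63%. The fit with the block and the fit to replicates 2 and 3 only each left 2 residual degrees of freedom. The pairing behind the block was taken from these same values. Control replicate 2 was highest for 39 of the 42 genes, so the members counted in a fit share 1 sample pattern and are not separate observations.

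Among the myosins, Mylpf encodes the regulatory light chain of fast skeletal muscle and Myl1 an essential light chain of fast and embryonic muscle. Mylpf had 32.2, 121 and 67.7 FPKM in control replicates 1, 2 and 3 and 34.0, 63.5 and 47.7 FPKM in mutant replicates 1, 2 and 3. The group means were 73.7 ± 44.9 and 48.4 ± 14.7 FPKM (SD, n = 3), and the groups overlapped throughout, with the first replicates low in both. Its log2 difference was -0.45 (standard error 0.46, limma adjusted p = 1.0), and 0.0051 without control replicate 2. With the block the limma standard error was 0.18 and the p 0.0458 before and 0.817 after adjustment. Myl1 lies on chromosome 1 of GRCm38 from 66924295 to 66945404. It had 15.2, 58.1 and 37.5 FPKM in controls and 13.8, 27.1 and 25.4 FPKM in mutants, and the mutant mean was 59.8% of the control mean. Both later mutants lay below both later controls, and the 2 first replicates lay side by side below them. The log2 difference of Myl1 was -0.58 (standard error 0.47, limma adjusted p = 1.0, exact permutation p = 0.40), and it was -0.14, -1.07 and -0.54 for replicate numbers 1, 2 and 3. With the block the limma p of Myl1 was 0.0137 before and 0.801 after adjustment (standard error 0.17). By quantitative PCR, another measure than FPKM, the paper reports that Myl1 fell significantly in knockout tissue.
Mybph, a myosin-binding protein gene, had 6.14, 17.2 and 10.1 FPKM in controls and 5.78, 9.17 and 6.75 FPKM in mutants. It repeated the order of Myl1, with control replicate 1 in the range of the mutants, and its log2 difference was -0.48 (standard error 0.33, limma adjusted p = 1.0, or unadjusted 0.018 and adjusted 0.804 with the block). Mybph overlaps Adora1 on the other strand, and 45.0% of the 50-base stretches of its longest transcript also occur in other genes, mainly Adora1. Of the heavy chains, embryonic Myh3 was the most abundant at 17.4 ± 13.7 FPKM in controls and 9.90 ± 2.82 FPKM in mutants (SD, n = 3). Perinatal Myh8 had 3.32 ± 2.77 and 1.39 ± 0.55 FPKM and slow or cardiac Myh7 1.84 ± 1.34 and 1.09 ± 0.32 FPKM (SD, n = 3). The light chain gene Myl4, used in embryonic muscle and atria, had 31.4 and 20.3 FPKM on average, and Mybpc1 3.03 and 2.36 FPKM. All 8 myosin and myosin-binding genes were highest in control replicate 2, and 3 of 8 were lower in mutants between the first replicates.

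The thin filament genes held the highest levels. Actc1, the cardiac actin that embryonic skeletal muscle also uses, had 65.1, 157 and 98.2 FPKM in control replicates 1, 2 and 3 and 63.4, 92.7 and 69.6 FPKM in mutant replicates 1, 2 and 3. The mutants spanned the lower part of the control range, and control replicate 1 lay between mutant replicates 1 and 3. The log2 difference of Actc1 was -0.43 (standard error 0.31, limma adjusted p = 1.0, or unadjusted 0.0178 and adjusted 0.804 with the block). It was -0.11 without control replicate 2. Tnnt1, the slow skeletal troponin T, had 28.1, 79.2 and 54.8 FPKM in controls and 24, 46.4 and 37.5 FPKM in mutants. Each mutant lay below the control of the same number, while the groups overlapped through control replicate 1. The log2 difference of Tnnt1 was -0.50 (standard error 0.39, limma adjusted p = 1.0). With the replicate block the standard error was 0.10 and the limma p 0.00309 before and 0.656 after adjustment.
The skeletal actin Acta1, whose promoter is shown beside that of Actc1, had 22.6 ± 13.6 FPKM in controls and 16.1 ± 4.50 FPKM in mutants (SD, n = 3). Troponin C, which binds calcium, is encoded by slow or cardiac Tnnc1, with 39.2 and 26.3 FPKM on average, and by fast Tnnc2, with 15.1 and 9.84 FPKM. Of Tnnc2, 55.0% of the 50-base stretches are shared with other genes, mainly Ube2c on the other strand. The troponin I genes Tnni1 (slow) and Tnni2 (fast) had 26.7 and 18.6 and 3.78 and 3.03 FPKM in controls and mutants. The troponin T genes Tnnt2 (cardiac) and Tnnt3 (fast) had 11.4 and 6.93 and 4.49 and 2.57 FPKM. All 9 thin filament genes were highest in control replicate 2, and 7 of 9 were lower in the mutant between the first replicates. Tnni2 differed least of the 9, at -0.12, and was higher in mutants between the first and between the third replicates.

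**Figure D3:**
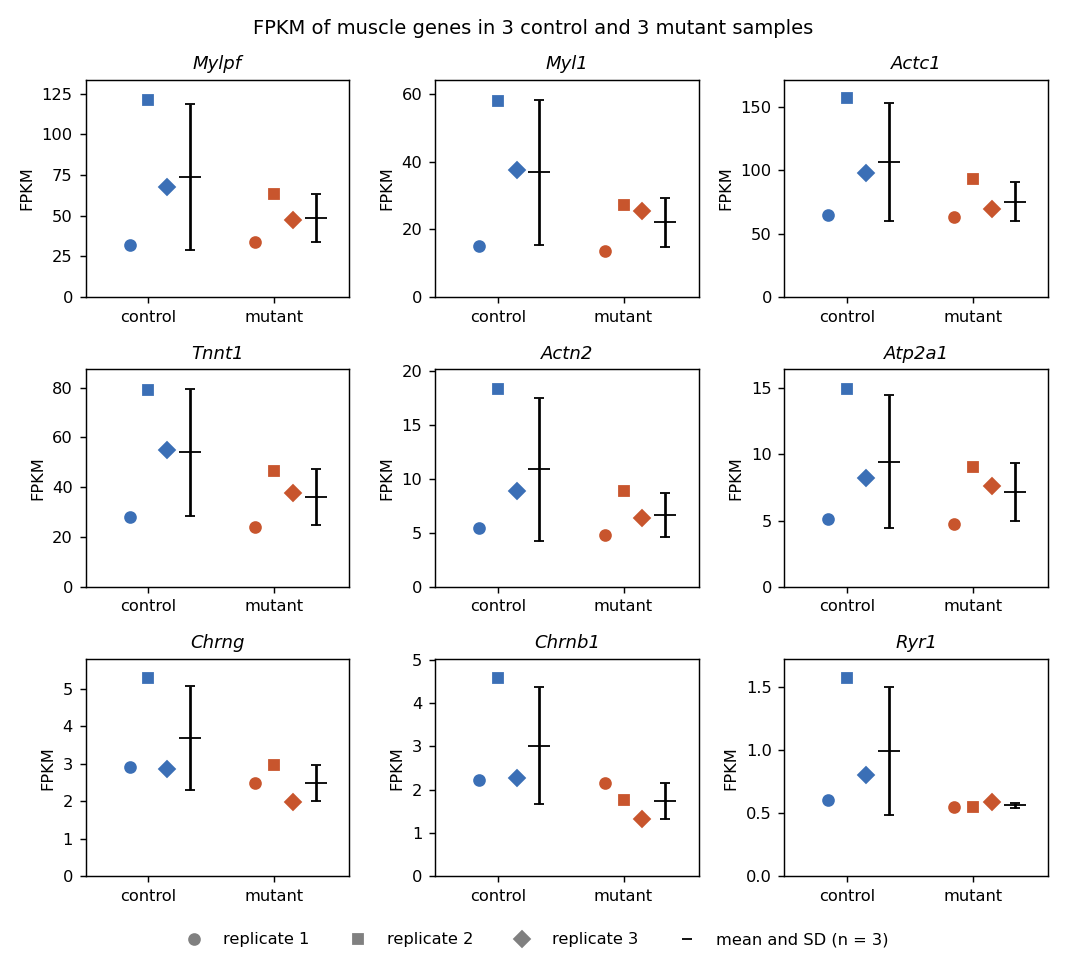
FPKM of 9 muscle genes in 3 control and 3 mutant samples, with the replicate number as the marker and the mean and SD (n = 3) beside the points. For Mylpf, Myl1, Actc1, Tnnt1, Actn2 and Atp2a1 the first replicates are the 2 lowest samples, and for Chrnb1 and Ryr1 all mutants lie below all controls.

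In the Z-disc group, Actn2 encodes the alpha-actinin that cross-links thin filaments. It had 5.47, 18.3 and 8.90 FPKM in controls and 4.82, 8.86 and 6.36 FPKM in mutants. Mutant replicate 2 came close to control replicate 3, and the difference within the controls was larger than that between the groups. Its log2 difference was -0.52 (standard error 0.39, limma adjusted p = 1.0, or unadjusted 0.0171 and adjusted 0.804 with the block) and -0.093 without control replicate 2. Pdlim3, a partner of alpha-actinin, had 7.27, 8.06 and 6.16 FPKM in controls and 5.50, 7.30 and 5.93 FPKM in mutants. It was the most even member, with 1.47 times between its highest and lowest sample, and did not share the low level of control replicate 1. The log2 difference of Pdlim3 was -0.17 (standard error 0.13, limma adjusted p = 1.0, or 0.839 with the block).
Desmin (Des), the intermediate filament of muscle, had 7.84 ± 3.41 FPKM in controls and 5.37 ± 1.35 FPKM in mutants (SD, n = 3). Neb, which lines the thin filament, had 2.37 and 1.13 FPKM on average, or 47.8% of the control mean, and Ttn, the giant spring of the sarcomere, 0.387 and 0.209 FPKM. Actn3, Tcap and Ldb3 had 2.13, 0.881 and 0.834 FPKM in controls and 1.73, 0.713 and 0.620 FPKM in mutants. The median difference of the 8 genes was -0.18, against -0.48 for the myosin and -0.44 for the thin filament genes, and log2(FPKM + 1) compresses the differences of the low genes among them. Between the first replicates 3 of the 8 were lower in the mutant, and between replicates 2 and between replicates 3 all 8 were.

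The genes for assembly and turnover were low. Smyd1, a methyltransferase needed for myosin filament assembly, had 3.26, 6.93 and 4.74 FPKM in controls and 2.53, 3.5 and 3.35 FPKM in mutants. Mutant replicates 2 and 3 lay just above control replicate 1 and below the other controls. Its log2 difference was -0.50 (exact permutation p = 0.30). Unc45b, the myosin chaperone that Smyd1 works with, had 1.59, 4.29 and 2.61 FPKM in controls and 1.46, 3.15 and 1.58 FPKM in mutants. Its groups overlapped, with mutant replicate 2 above control replicates 1 and 3, and the log2 difference was -0.30. The ubiquitin ligase gene Trim55 had 2.28 and 1.42 FPKM on average.

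Calcium handling was led by Atp2a1, the calcium pump of fast sarcoplasmic reticulum, and Casq2, a calcium store protein. Atp2a1 had 5.15, 15 and 8.23 FPKM in controls and 4.77, 9.07 and 7.64 FPKM in mutants. Mutant replicate 2 was above control replicate 3, and the log2 difference was -0.28 (standard error 0.36, limma adjusted p = 1.0, or 0.839 with the block) and 0.077 without control replicate 2. Casq2 had 2.96, 9.49 and 5.94 FPKM in controls and 2.76, 4.98 and 3.77 FPKM in mutants, a log2 difference of -0.48, with control replicate 1 again among the mutants. Ryr1, the calcium release channel of skeletal muscle, had 0.609, 1.57 and 0.803 FPKM in controls and 0.554, 0.548 and 0.589 FPKM in mutants. The mutants were nearly equal to each other and all lay below the lowest control, by a small margin, and the mean was 56.6% of that of controls (exact permutation p = 0.10, the smallest possible).
Casq1 had 1.49 and 1.30 FPKM on average in controls and mutants, Jph1 1.40 and 1.27, and Cav3 1.07 and 0.572. Cacna1s, the voltage sensor, had 0.677 and 0.450 FPKM and Trdn, which ties calsequestrin to the ryanodine receptor, 0.154 and 0.0768 FPKM. Cacng1, a subunit of the voltage sensor, had 0.465, 1.51 and 1.12 FPKM in controls and 0.371, 0.573 and 0.274 FPKM in mutants. The mutant mean was 39.3% of the control mean, the lowest of this group, while mutant replicate 2 lay above control replicate 1. Its log2 difference was -0.50 (standard error 0.21, p = 0.0489 before adjustment and 1.0 after it in limma without the filter, exact permutation p = 0.20). Of the 9 genes of this group, 7 were highest in control replicate 2, and Casq1 and Jph1 were the exceptions. All 9 were lower in the mutant between the third replicates.

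The 4 acetylcholine receptor genes were all highest in control replicate 2, and their median differences were -0.14, -0.58 and -0.39 for replicate numbers 1, 2 and 3. Chrng, the embryonic gamma subunit, had 2.90, 5.29 and 2.85 FPKM in controls and 2.49, 2.95 and 1.99 FPKM in mutants. Control replicates 1 and 3 lay close together, and the mutants overlapped the controls through mutant replicate 2. Chrnb1, the beta subunit, on chromosome 11 from 69784036 to 69795943, had 2.22, 4.57 and 2.28 FPKM in controls and 2.15, 1.76 and 1.32 FPKM in mutants. All mutants lay below all controls, although mutant replicate 1 reached 97.0% of control replicate 1, and the log2 difference was -0.51 (exact permutation p = 0.10). Chrnd, the delta subunit, lies on chromosome 1 from 87190607 to 87200070, 4.6 kb from Chrng. It had 0.473, 1.02 and 0.628 FPKM in controls and 0.252, 0.429 and 0.429 FPKM in mutants, again without overlap, at a level where 52.4% of the control mean is a difference of -0.31.
Chrna1, the alpha subunit, had 1.79 ± 0.59 FPKM in controls and 1.19 ± 0.26 FPKM in mutants (SD, n = 3). All 4 subunits were lower in the mutant for all 3 replicate numbers. Chrnb1, Chrnd and Ryr1 were the 3 of the 42 members whose mutant values all lay below the control values, against 3.33% of all genes. Each has a mean FPKM under 5 and was not tested in the filtered fit.

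Ckm, the creatine kinase of mature muscle, was at the bottom of the range. Its FPKM was 0.0151, 0.241 and 0.0358 in controls and 0.0128 and 0.0379 in mutant replicates 1 and 2, and it was listed at 0 in mutant replicate 3. No value reached 1 FPKM, and control replicate 2 was again the highest sample.

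Ratios between related genes were compared because a change shared by all muscle genes cancels in them. Of 12 ratios of FPKM, 11 overlapped between the groups. Myh8 to Myh3, the perinatal to the embryonic heavy chain, was 0.207, 0.199 and 0.167 in control replicates 1, 2 and 3 and 0.128, 0.164 and 0.123 in mutant replicates 1, 2 and 3. All mutants lay below all controls, with means of 0.191 ± 0.021 and 0.138 ± 0.022 (SD, n = 3; exact permutation p = 0.10, adjusted p = 0.96 over the 12 ratios). Myh3 and Myh8 are 174.8 kb apart on chromosome 11, and 21.4% of the 50-base stretches of Myh8 are shared with other genes, mainly Myh2, Myh1 and Myh4. The fast to slow troponin ratios overlapped between the groups. Tnnt3 to Tnnt1 ran from 0.0591 to 0.0982 and Tnnc2 to Tnnc1 from 0.361 to 0.469 over the 6 samples. Tnni2 to Tnni1 had means of 0.131 in controls and 0.164 in mutants (exact permutation p = 0.30). Acta1 to Actc1 ran from 0.183 to 0.242, a narrow range beside the 3.05 times between controls 1 and 2 in the level of a typical member. Not all pairs were as even, and Casq1 to Casq2 ran from 0.170 to 0.411 and Myh7 to Myh3 from 0.0751 to 0.147.

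**Figure D4:**
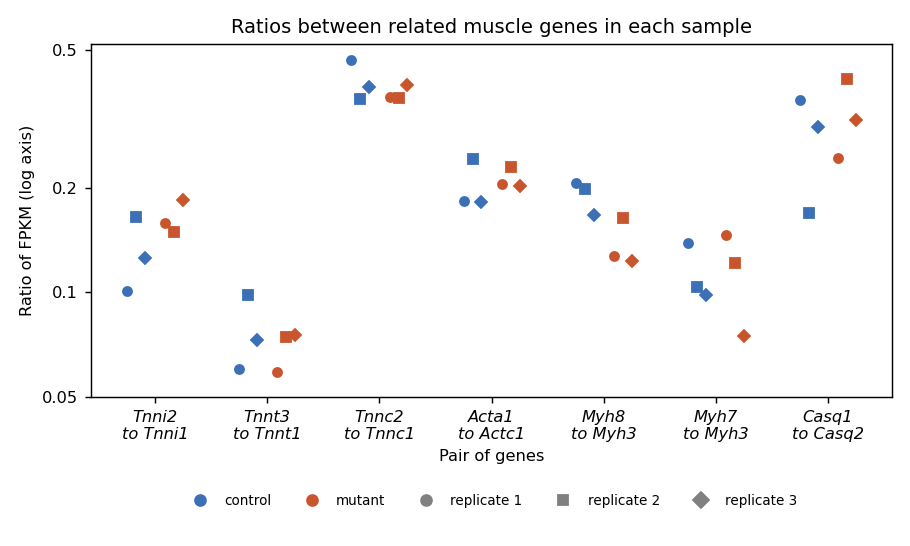
Ratio of FPKM between 7 pairs of related muscle genes in each sample (log axis), with the group as colour and the replicate number as marker. Only Myh8 to Myh3 separates the groups, at 0.167 to 0.207 in controls and 0.123 to 0.164 in mutants.

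Other genes of muscle moved less. Of 52 other sarcomere and muscle membrane genes, 42 had a lower mean in mutants, against 51.0% of all genes, with a median difference of -0.13. Control replicate 2 was highest for 39 of them, against 21.5% of all genes. None of the 10 that passed the filter had an unadjusted p under 0.05. With the replicate block 1 of the 10 was lower at this p, against 3.70% of all genes tested. With replicates 2 and 3 only it was 3 of 12, against 5.74%. The most abundant of the 52, Fhl1, had 28.0 ± 5.85 and 29.5 ± 3.58 FPKM (SD, n = 3). Of 17 myogenic regulators, 12 had a lower mean in mutants, against 51.0% of all genes, with a median difference of -0.088. Myog, which drives the terminal differentiation of myoblasts, was the most abundant, with 22.9, 43.9 and 29.8 FPKM in controls and 22.4, 26.4 and 22.4 FPKM in mutants. Its groups overlapped at the first replicates, and the log2 difference was -0.38 (standard error 0.22, limma adjusted p = 1.0). Pax3 had 8.83, 11.9 and 11.1 FPKM in controls and 8.62, 7.59 and 8.36 FPKM in mutants. It was the 1 of 9 regulators tested with an unadjusted p under 0.05, at 0.0262 (limma adjusted p = 1.0), against 0.954% of all genes that were lower, and the mutants carry Cre in 1 copy of this gene. With the replicate block, 3 of the 9 were lower at an unadjusted p under 0.05, against 3.70% of all genes tested.

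Markers of other cell types also differed between the samples. For surface epithelium, 7 of 8 genes were highest in control replicate 2, against 21.5% of all genes. The list summed to 125, 216 and 187 FPKM in controls and 124, 172 and 132 FPKM in mutants, the same order of samples within each group as the muscle genes. Its most abundant gene, Krt5, had 60.0 ± 19.4 and 43.7 ± 13 FPKM (SD, n = 3). None of the 7 epithelial genes tested had an unadjusted p under 0.05, against 0.954% of all genes that were lower, and 2 were lower at this p with the replicate block, against 3.70%. Smooth muscle genes summed to 80.9 to 106 FPKM in controls and 59.9 to 87.8 FPKM in mutants, with Acta2 at 57.8 and 42.5 FPKM on average, and 0 of the 3 tested had an unadjusted p under 0.05, or 2, lower in mutants, with the block, against 3.70% of all genes.
Cranial mesenchyme genes, which mark the connective tissue of the face, summed to 683, 821 and 726 FPKM in controls and 731, 665 and 681 FPKM in mutants. Of the 10, 9 had a lower mean in mutants, against 51.0% of all genes, with a median difference of -0.069. Between the second replicates all 10 were lower in the mutant, against 48.5% of all genes. Between the first replicates 1 was, against 48.0%, and between the third 7 were, against 45.5%. For these genes, 0 of 10 had an unadjusted p under 0.05. Col1a2, their most abundant gene, had 283 and 249 FPKM on average. For erythroid cells, 6 genes summed to 8926, 4577 and 4985 FPKM in controls and 8807, 6352 and 9092 FPKM in mutants. They were thus high in the first replicates and in mutant replicate 3, the 3 samples with the lowest muscle sums, and none of 5 tested had an unadjusted p under 0.05, or 2, higher in mutants, with the block, against 2.31% of all genes. Hbb-y, an embryonic haemoglobin, had 4621 and 6185 FPKM on average.
All but 1 of the 10 neuronal genes had a higher mean in mutants. At an unadjusted p under 0.05, 4 of 10 were higher, against 0.706% of all genes tested, and 7 with the replicate block, against 2.31%. These 4 were Tubb3, Map2, Dcx and Elavl3, and none had an adjusted p under 0.05 in limma. Tubb3 had 392, 322 and 366 FPKM in controls and 402, 498 and 466 FPKM in mutants, with the lowest value in control replicate 2. The sums of the list were 730 to 802 FPKM in controls and 870 to 959 FPKM in mutants. The part of these cell types in the muscle values was not tested.

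**Figure D5:**
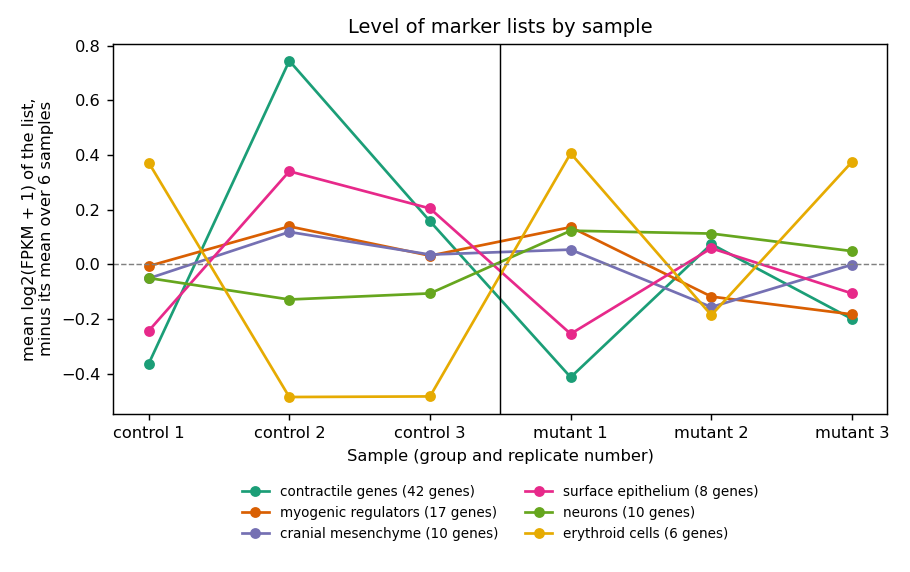
Mean log2(FPKM + 1) of 6 gene lists in each sample, as the difference from the mean of the list over the 6 samples. Muscle genes, myogenic regulators, cranial mesenchyme and surface epithelium are highest in control replicate 2, the regulators by a small margin over mutant replicate 1. The mean of the neuronal list is higher in each mutant than in each control.

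The 42 genes lie on 11 chromosomes of GRCm38, with 10 on chromosome 1 and 7 each on chromosomes 7 and 11. The closest neighbours were Chrnd and Chrng, and 5 more pairs lay within 241.8 kb, among them Tnni1 and Tnnt2 with 25.4 kb between them and Tnni2 and Tnnt3 with 54.4 kb. Other genes overlap 24 of the members, on the opposite strand for 21. The paper names a stranded library kit, but whether strand was used to assign reads there is not given in the sources used here. Of the members, 20 share no 50-base stretch with another gene and 11 share over 5% of their stretches. For Myl1 the share was 23.4%, mainly with the pseudogene Mylf-ps, and for Atp2a1 it was 18.3%, so the values of these genes are less certain than those of Mylpf, Actc1, Tnnt1 and Chrnb1, which share none.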

How the data were processed

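RNA-Seq was performed by the authors on poly(A)+ RNA of craniofacial tissue from 3 control and 3 Rbfox2 mutant embryos at E12.5, which the methods call independent biological replicates. The submitters' processing notes name FastQC 0.11.4, STAR, Cuffdiff and GRCm38, and the STAR and Cuffdiff versions and the annotation are not given in the sources used here. The authors deposited FPKM and no counts, so the number of fragments behind a value is not given and no count test was run.

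Groups and replicate numbers came from the labels. The methods keep transcripts above 5 FPKM in each control or in each mutant sample, and the same limit, applied here to whole genes, kept 10061. Values were taken to log2(FPKM + 1), limma 3.58.1 (R 4.3.3) compared the groups with a trend on intensity and no covariate, and p-values were adjusted by Benjamini-Hochberg over all genes tested. The fit without the block was tested on simulated data with independent noise for each gene, and the block and the subsets of samples were not tested so. Counts of direction used all 42 genes. Deviations from the group means correlated across genes at 0.64, 0.26 and 0.51 between samples numbered 1, 2 and 3, so the replicate number was also fitted as a block. Replicates 2 and 3 also correlated with each other across groups (0.23 and 0.40), and a first replicate with another sample at -0.68 to -0.37. This pairing comes from the values, mainly those of the first replicates, and not from the labels.

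The members and lists were chosen with earlier results of these data known, so no test was made over a list. Context lists held other sarcomere and muscle membrane genes, myogenic regulators, heart muscle, smooth muscle, neurons, cranial mesenchyme, erythroid cells and surface epithelium. Given with every sample's value were, per role, the 2 members with the highest mean FPKM and the tested member with the smallest p. So were members without overlap between groups and Myl1, which the paper also measured by quantitative PCR. Cacng1 was added after its values were seen. Of other genes, Rbfox2, the most abundant gene of each list and those with an unadjusted p under 0.05 were named. Alternatives were a pseudocount of 0.1, median-ratio scaling, quantile normalization, an FPKM minimum of 1, no filter, no trend, the block, replicates 2 and 3 only, a Y-linked covariate and each sample left out. The counts of lower members were recomputed under alternatives chosen after seeing the data.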

Additional observations from a re-analysis of the deposited data

How the results depend on the processing

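No muscle gene had an adjusted p under 0.05 under any of the 15 alternatives, while the direction depended on the samples. All 42 muscle genes were lower in mutants with median-ratio scaling, with replicates 2 and 3 only and without control replicate 1, 25 were with the first replicates only, and leaving out each sample in turn gave 31 to 42, the lowest without control replicate 2. The count of muscle genes with an unadjusted p under 0.05 was 0, and leaving out each sample in turn gave 0 to 13, the highest without control replicate 1. It was 1 with no filter and 10 with replicates 2 and 3 only. With the replicate block, the pairing by number, it was 10. It was 0 with a pseudocount of 0.1, either scaling, an FPKM minimum of 1 (29 members tested), no trend and the Y-linked covariate. The count with an adjusted p under 0.05 was 0 throughout. The median log2 fold change of the members tested was -0.46 and stayed negative, from -0.87 to -0.086 with each sample left out and -0.65 with replicates 2 and 3 only. For 5 of the 14 members tested the sign turned without control replicate 2. Leaving out each sample in turn gave -0.70 to 0.096 for Acta1, -0.61 to 0.077 for Atp2a1, -1.07 to 0.083 for Myh3, -0.94 to 0.0051 for Mylpf and -0.96 to 0.028 for Tnnc1. Why control replicate 2 stood so high was not tested. No limit from counting was set for the 10 members with a mean FPKM of at most 1. The files give no depth by sample, and the paper only a range of reads over the samples.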

Other observations

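Nkx2-5, Stac3, Klhl41 and Lbx1 are named here after their values were seen, from the lists of heart genes, muscle genes and myogenic regulators. Nkx2-5, a transcription factor of heart and pharyngeal mesoderm, had 1.56, 1.34 and 1.07 FPKM in control replicates 1, 2 and 3 and 0.509, 0.434 and 0.451 FPKM in mutant replicates 1, 2 and 3. Unlike the muscle genes it was not highest in control replicate 2, and the mutant was lower for each replicate number. All mutants lay below all controls, at 35.1% of the control mean (exact permutation p = 0.10, the smallest possible), as for 3.33% of all genes. It is too low for the filter, and 1 gene picked from many carries no test.

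Stac3, an adaptor of the voltage sensor and ryanodine receptor, had 2.67, 8.78 and 4.81 FPKM in controls and 3.09, 2.63 and 2.09 FPKM in mutants. Klhl41, a stabiliser of nebulin, had 3.49, 8.87 and 5.43 FPKM in controls and 2.65, 3.93 and 3.34 FPKM in mutants. For both, the groups overlapped through control replicate 1. Lbx1, a marker of migrating muscle precursors and also of dorsal neurons, had 2.77 FPKM in mutant replicate 1 and 0.110 to 0.571 FPKM in the other samples.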
